A study of Mus musculus with 9 samples.

Results

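The inhibitory and CD28-family receptor genes Ctla4, Pdcd1, Btla, Icos, Lag3, Tigit, Cd200, Cd160 and Cd96 were followed across RNA-seq profiles of CD4 single-positive (SP4) thymocytes that differed in reporter GFP. These 9 genes were chosen by symbol, 9 of the 41978 genes in the table, and all 9 were found. The cells came from thymi of Nur77-eGFP BAC Tg mice on a C57BL/6 background, in which a bacterial artificial chromosome carrying Nr4a1 (Nur77) regulatory sequence drives GFP in response to T cell receptor (TCR) signaling. All groups carried the transgene, so no group without the reporter is part of the comparison, and none was treated. Semi-mature SP4 cells, sorted by the labels as live CD25- CD69+ CD24+ CD4+ CD8-, were split by GFP into gates of about 10% each, the lowest (GFPlo), a medium one (GFPmed) and the highest (GFPhi), with 3 biological replicates per group, 9 samples in all, and 10000 cells sorted per sample. The study's methods give mice of both sexes that were a few weeks old. The age for each sample, and whether samples of different groups came from the same animals, are not given in the sources used here.

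These receptors set how strongly a T cell responds once its TCR is engaged. CD28 gives the classical costimulatory signal when it binds CD80 or CD86, ICOS is a related costimulatory receptor, and CTLA-4 competes with CD28 for the same ligands and restrains the response. PD-1 (Pdcd1) and BTLA recruit tyrosine phosphatases to the TCR, LAG-3 binds MHC class II, CD96 and TIGIT bind nectin-like ligands that they share with the activating receptor CD226, CD160 binds the herpesvirus entry mediator (Tnfrsf14) as BTLA does, and CD200 is a ligand-like surface protein whose receptor restrains myeloid cells. In the thymus several of them appear on cells that meet self-antigen strongly, and CTLA-4 is also a constitutive product of regulatory T cells (Treg).

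Ctla4, Cd200 and Pdcd1 rose from GFPlo to GFPhi, and the same 3 genes rose from GFPmed to GFPhi. Icos and Cd96 were higher in GFPhi by less than 2-fold. Cd160 was higher in every GFPhi sample, at a low TPM, and whether it was called depended on the test. Btla was not called in any pair of groups, and Lag3 and Tigit were near the level of genes not expected in a thymocyte.

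Depth, counted as reads on genes solved from the deposited values, ran from 7465552 to 14943774 per sample with a median of 9426281. Expression is given as deposited TPM, an abundance divided by the genomic span of the gene, introns included, and scaled to the total of each sample. Fold changes were taken on the log2(TPM + 1) scale, which shrinks the change of a gene whose TPM is low. In limma, with p-values adjusted by Benjamini-Hochberg over 30693 genes, a gene was called when its log2 fold change reached 1 in either direction and its adjusted p did not exceed 0.05. The genes tested had 3 or more samples at a TPM of 1 or higher. Of the 9 receptor genes, 8 passed that filter and Tigit did not. The labelled cell type was checked on 8 markers of SP4 thymocytes, whose summed level was 5952 to 7123 TPM in GFPlo, 6323 to 6929 in GFPmed and 6134 to 6933 TPM in GFPhi samples, and 0 of the 8 were called between GFPhi and GFPlo. Cd69, whose product was a marker of the sort, was at 375 TPM on average in GFPlo and 216 TPM in GFPhi, a log2 difference of -0.79 that passed the adjusted p (limma, 0.0142) but not the fold limit. Its part in the receptor differences was not tested. Nr4a1, the gene behind the reporter, was at 213, 187 and 251 TPM in GFPlo, 366, 351 and 406 in GFPmed and 767, 917 and 836 TPM in GFPhi samples, in the order of the GFP gates without overlap.

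The receptor genes fall into a few stretches of the mouse genome (GRCm38, GENCODE vM21). Cd28, Ctla4 and Icos lie in a row on the plus strand of chromosome 1, at chr1:60716800-60773359, chr1:60887000-60915832 and chr1:60977927-61000320, with 113.6 kb between Cd28 and Ctla4 and 62.1 kb between Ctla4 and Icos. Pdcd1 lies farther along the same chromosome, at chr1:94038305-94052553 on the minus strand. Tigit (chr16:43648867-43664146, minus), Btla (chr16:45224315-45257670, plus), Cd200 (chr16:45382135-45409053, minus) and Cd96 (chr16:46035657-46120251, minus) share 2.47 Mb of chromosome 16. Lag3 is at chr6:124904361-124911705 and Cd160 at chr3:96798763-96829351, both on the minus strand. Cd160 shares 68 exonic bases with Pdzk1 on the opposite strand, and since the counting is not stated to use strand, reads there cannot be assigned to one gene.

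RefSeq promoters (GRCm38.p6, from 250 bases before to 50 bases after the start of transcription) were at hand for 7 of the 9 genes, Icos and Lag3 being those without one. They were searched on both strands for the monomer site of the NR4A factors (AAAGGTCA), the core of NFAT sites (GGAAA), the AP-1 site (TGANTCA) and the EGR site (GCGNGGGCG), factors that act downstream of the TCR. The promoters of the 3 genes that rose are printed 5′ to 3′ on the strand of the gene, with matches in capitals, because these are the genes whose transcripts rose with the reporter. They cover chr1:60908775-60909074 for Ctla4, chr16:45409004-45409303 for Cd200 and chr1:94052504-94052803 for Pdcd1.
Ctla4 promoter: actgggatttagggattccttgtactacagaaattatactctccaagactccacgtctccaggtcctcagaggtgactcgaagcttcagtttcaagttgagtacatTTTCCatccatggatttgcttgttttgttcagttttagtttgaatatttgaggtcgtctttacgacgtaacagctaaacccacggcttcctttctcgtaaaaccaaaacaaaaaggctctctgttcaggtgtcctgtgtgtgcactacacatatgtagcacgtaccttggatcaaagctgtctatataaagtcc
Cd200 promoter: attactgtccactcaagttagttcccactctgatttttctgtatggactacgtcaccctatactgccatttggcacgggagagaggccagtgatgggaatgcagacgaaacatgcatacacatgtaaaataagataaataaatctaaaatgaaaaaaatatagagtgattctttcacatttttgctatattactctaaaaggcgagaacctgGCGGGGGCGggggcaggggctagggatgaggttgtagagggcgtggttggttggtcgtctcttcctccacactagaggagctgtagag
Pdcd1 promoter: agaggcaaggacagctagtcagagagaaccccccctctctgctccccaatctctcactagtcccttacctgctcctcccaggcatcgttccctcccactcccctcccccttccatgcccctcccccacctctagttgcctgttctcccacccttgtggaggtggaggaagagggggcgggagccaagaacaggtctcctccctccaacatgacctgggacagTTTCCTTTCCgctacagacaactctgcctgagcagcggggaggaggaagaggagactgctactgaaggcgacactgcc
The Ctla4 promoter held 1 NFAT core, 144 bases before the start, and the Pdcd1 promoter held 2, side by side at 28 and 23 bases before it. The Cd200 promoter held no NFAT core and 1 EGR site, 38 bases before the start. NFAT cores were found in 61.3% of the 32851 promoters in the table and EGR sites in 5.55%. The NR4A site, found in 1.51% of all promoters, and the AP-1 site, found in 7.81%, were in none of the promoters of the 7 genes. Among the genes that were not called, the Cd96 promoter held 5 NFAT cores, the Tigit promoter 2 and the second of the 2 Cd160 promoters 1, while the Btla promoter held none of the 4 motifs. A match describes these letters in this window and is not a measured binding site.

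The first comparison asked which receptor genes differed between the extremes of the reporter. Of the 8 receptor genes tested, 3 were called higher in GFPhi than in GFPlo, against 1.26% of all genes tested, and 0 were called lower, against 0.404%. Their median log2 fold change was 0.77, beside -0.087 over all genes tested. In 6 of the 8 genes, Ctla4, Cd200, Pdcd1, Icos, Cd96 and Cd160, every GFPhi sample had a higher TPM than every GFPlo sample, which held for 8.26% of all genes. Where the fold change was left without a limit, 5 of the 8 passed the adjusted p in the higher direction, against 2.38% of all genes, and these were the same 6 without Cd160.

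**Figure D1:**
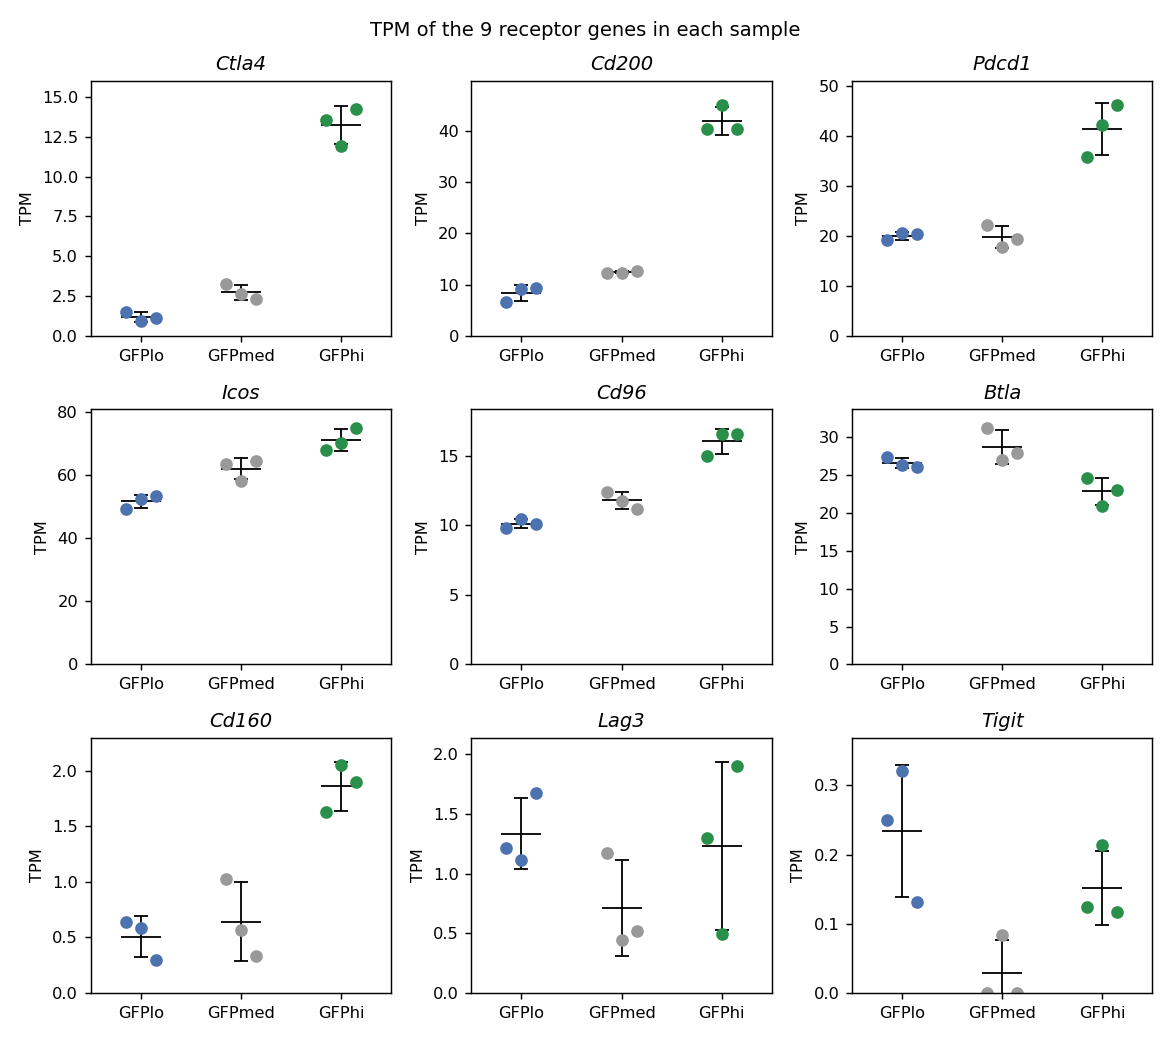
TPM (linear axes from 0) of each of the 9 receptor genes in the 3 GFPlo, 3 GFPmed and 3 GFPhi samples; points are samples, the horizontal mark is the mean and the bar is 1 SD. Ctla4, Cd200 and Pdcd1 stand apart in GFPhi, Icos and Cd96 climb over a narrow range, Btla lies between 21.0 and 31.2 TPM in all samples, and Lag3 and Tigit stay under 2 TPM.

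Among the CD28 family, Ctla4, the inhibitory member, had 1.504, 0.917 and 1.10 TPM in the GFPlo samples. It had 3.26, 2.64 and 2.34 in GFPmed and 13.6, 11.9 and 14.2 TPM in GFPhi. The 3 groups did not overlap, and the GFPhi mean of 13.2 ± 1.17 TPM (SD, n = 3) was 11.3-fold the GFPlo mean of 1.18 ± 0.2997 TPM. On the log2(TPM + 1) scale the change was 2.72 (95% interval 2.25 to 3.19, limma adjusted p = 0.000462), and limma-voom on the solved reads, which adds no pseudocount of 1 to TPM, gave 3.52. In reads, Ctla4 went from 25, 19 and 21 in GFPlo over 104, 52 and 39 in GFPmed to 363, 279 and 303 in GFPhi, so the GFPlo level rests on 65 reads in all. Because the samples are bulk, a larger share of Ctla4-expressing cells and more Ctla4 RNA per cell cannot be told apart, here or for the genes that follow.

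Icos, the costimulatory neighbour of Ctla4, was at a much higher level throughout. Its TPM was 49.5, 52.4 and 53.6 in GFPlo, 63.7, 58.4 and 64.5 in GFPmed and 68.1, 70.4 and 75.1 in GFPhi samples, again without overlap between groups. The difference between GFPhi and GFPlo was 0.45 on the log2 scale (95% interval 0.28 to 0.62, limma adjusted p = 0.0149), under the fold limit. Its adjusted p was 0.285 with median-of-ratios scaling of the TPM and 0.0683 when only the 2 groups were fitted, so the smaller difference held in some settings and not in others.

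Cd28 itself, the activating receptor for the ligands of CTLA-4, had 179, 197 and 195 TPM in GFPlo, 192, 190 and 185 in GFPmed and 150, 159 and 168 TPM in GFPhi. All GFPhi samples were below all others, by 0.26 on the log2 scale (adjusted p = 0.075, not called). The 3 adjacent genes of one family thus had log2 differences of -0.26, 2.72 and 0.45 between GFPhi and GFPlo. Per kilobase of exon, Ctla4 stood at 0.918%, 0.509% and 0.620% of Cd28 in the GFPlo samples, at 1.85%, 1.51% and 1.39% in GFPmed and at 9.92%, 8.24% and 9.26% in GFPhi. The ratio separated the groups without overlap. Its highest value in any sample was 9.92%.

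PD-1 is the receptor for PD-L1 and PD-L2, and its gene Pdcd1 behaved differently from Ctla4 at the low end of the reporter. Its TPM was 19.2, 20.6 and 20.3 in GFPlo and 22.1, 17.9 and 19.3 in GFPmed, so these groups overlapped, and 35.8, 42.1 and 46.2 in GFPhi, above both. The GFPhi mean of 41.4 ± 5.22 TPM was 2.07-fold the GFPlo mean of 20.03 ± 0.773 TPM. The log2 fold change was 1.00 against GFPlo (95% interval 0.72 to 1.29, limma adjusted p = 0.00469) and 1.03 against GFPmed (adjusted p = 0.00842). The call sits at the fold limit. It was lost with median-of-ratios scaling (1.09, adjusted p = 0.0533) and, because the fold change came to 0.97, 0.99 and 0.92, without GFPlo replicate 1, GFPhi replicate 2 or GFPhi replicate 3.

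Btla, a receptor of the same superfamily that recruits the phosphatases SHP-1 and SHP-2, gave no call. Its TPM was 27.4, 26.3 and 26.1 in GFPlo, 31.2, 27.0 and 27.8 in GFPmed and 24.6, 21.0 and 23.0 in GFPhi. The GFPhi samples were the lowest, with a log2 difference from GFPlo of -0.21 (95% interval -0.44 to 0.013, limma adjusted p = 0.401). The interval excludes a 2-fold difference in either direction. The log2 difference between GFPhi and GFPmed was -0.32 (95% interval -0.54 to -0.090, limma adjusted p = 0.235). Over 11 alternatives other than leaving out 1 sample, its limma adjusted p was 0.0217 to 0.802, and none called Btla. Its counter-receptor gene Tnfrsf14 was at 16.5 ± 0.973 TPM in GFPlo, 23.8 ± 1.41 in GFPmed and 22.6 ± 2.53 TPM in GFPhi (log2 difference between GFPhi and GFPlo 0.43, adjusted p = 0.0973, not called).

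Cd200 lies 124.5 kb from Btla on the opposite strand and had a different pattern. It had 6.64, 9.14 and 9.42 TPM in GFPlo, 12.3, 12.3 and 12.7 in GFPmed and 40.3, 44.9 and 40.3 TPM in GFPhi, with no overlap between groups. The GFPhi mean of 41.8 ± 2.68 TPM was 4.98-fold the GFPlo mean of 8.404 ± 1.53 TPM. The log2 fold change was 2.20 against GFPlo (95% interval 1.87 to 2.52, limma adjusted p = 0.00024) and 1.67 against GFPmed (adjusted p = 0.00185). Cd200 and Ctla4 were called in both of these comparisons under every alternative that was run. The gene for the CD200 receptor, Cd200r1, is on the list of ligands and counter-receptors and was not called. It was at 11.6 ± 0.635 TPM in GFPlo, 9.71 ± 0.513 in GFPmed and 7.73 ± 0.479 TPM in GFPhi. The log2 difference between GFPhi and GFPlo was -0.53 (95% interval -0.82 to -0.23, limma adjusted p = 0.0712).

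Of the nectin-binding receptors, Cd96 had 9.79, 10.4 and 10.1 TPM in GFPlo, 12.4, 11.8 and 11.2 in GFPmed and 14.99, 16.6 and 16.5 TPM in GFPhi. The groups did not overlap, and the GFPhi mean was 1.59-fold the GFPlo mean (log2 difference 0.62, 95% interval 0.36 to 0.87, limma adjusted p = 0.0225, under the fold limit). The adjusted p was above the threshold with median-of-ratios scaling (0.183), with only the 2 groups (0.103) and with the replicate number as a block (0.0594). Cd226, the activating receptor that shares the ligand CD155 with CD96, went the other way. It fell from 8.61, 11.7 and 10.96 TPM in GFPlo over 8.04, 8.92 and 7.37 TPM in GFPmed to 3.51, 3.05 and 3.76 TPM in GFPhi (log2 fold change -1.36, adjusted p = 0.00583 against GFPlo, and -1.04, adjusted p = 0.0348 against GFPmed).

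Per kilobase of exon, Cd96 exceeded Cd226 in every sample. The ratio was 3.54, 2.78 and 2.87 in GFPlo, 4.81, 4.11 and 4.74 in GFPmed and 13.3, 16.9 and 13.7 in GFPhi. The plot of the ratios sets this beside Ctla4 and Cd28, and in both pairs every GFPhi sample lay above every other sample. The ratios themselves were not tested.

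**Figure D2:**
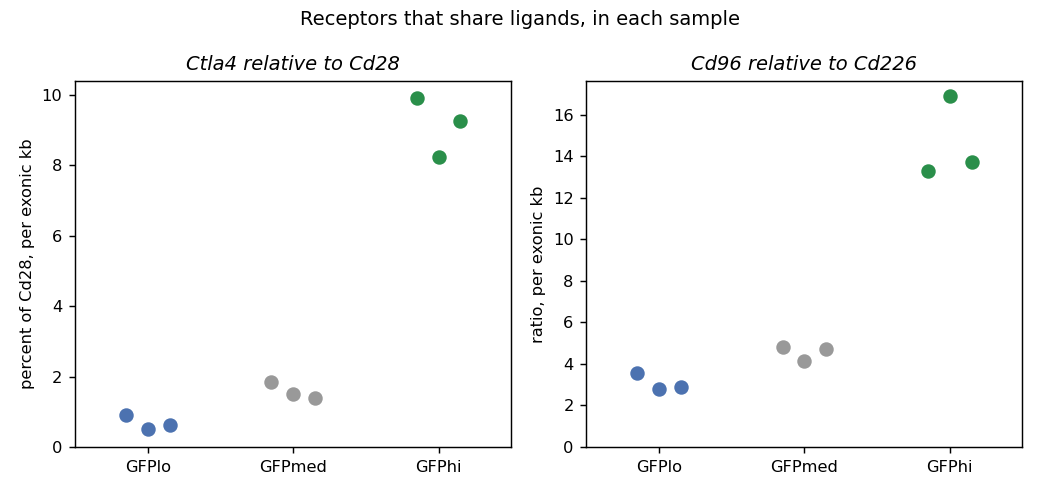
Left, Ctla4 as a percent of Cd28; right, the ratio of Cd96 to Cd226, both from solved reads per kilobase of exon (linear axes from 0), with 1 point per sample. Ctla4 reached 8.24% to 9.92% of Cd28 in GFPhi against 0.509% to 0.918% in GFPlo, and Cd96 reached 13.3 to 16.9 times Cd226 against 2.78 to 3.54 times.

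Tigit, the inhibitory competitor of CD226, was at the edge of detection. It had 5, 8 and 3 reads in GFPlo, 0, 2 and 0 in GFPmed and 4, 6 and 3 in GFPhi, that is, 0.131 to 0.321, 0 to 0.0843 and 0.117 to 0.214 TPM. Summed over each group this was 0.623 RPM (reads relative to all reads of the group) in GFPlo (exact Poisson 95% interval 0.356 to 1.01), 0.0636 in GFPmed (0.0077 to 0.23) and 0.404 in GFPhi (0.215 to 0.692). The intervals cover counting error only, and the reads were amplified without molecular identifiers. The GFPmed interval lay below that of GFPlo, but in the fit without a filter the log2(TPM + 1) difference of -0.26 between them had a limma adjusted p of 0.731. A sample with 0 reads allows up to 3 reads, and no difference between GFPhi and GFPlo was detectable at this depth.

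CD160 is a receptor for the same mediator as BTLA, mostly known from natural killer and CD8 T cells. Its gene had 21, 24 and 11 reads in GFPlo, 65, 22 and 11 in GFPmed and 86, 95 and 80 in GFPhi. In TPM this was 0.638, 0.585 and 0.292 in GFPlo, 1.03, 0.563 and 0.333 in GFPmed and 1.62, 2.05 and 1.89 in GFPhi, so GFPhi lay above both other groups, which overlapped. The GFPhi mean was 3.68-fold the GFPlo mean, yet the log2(TPM + 1) difference was 0.93 (95% interval 0.43 to 1.43, limma adjusted p = 0.0611) and was not called. The deposited TPM of Cd160 divides by a mean transcript span of 25182 bases, against 2642 bases of exon. That lowers its TPM, and the added 1 then shrinks its change. By limma-voom on the reads solved, the log2 fold change was 1.94 (adjusted p = 0.00678) and Cd160 was called as the fourth of the receptor genes, where 1.59% of all genes were called higher. Of 6 tested markers of natural killer T and other innate-like T cells, Il2rb, which is also on the Treg list, was called higher and Sox13 lower. The list summed to 309 to 348 TPM in GFPlo, 352 to 366 in GFPmed and 389 to 591 TPM in GFPhi. Zbtb16, below the filter, had a mean of 0.0986 TPM in GFPlo, 0.117 in GFPmed and 0.142 in GFPhi. The part of such cells in the Cd160 difference was not tested.

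Lag3, whose product binds MHC class II, had 7, 8 and 11 reads in GFPlo, 13, 3 and 3 in GFPmed and 12, 4 and 14 in GFPhi. The groups overlapped in every pair, and the log2 difference between GFPhi and GFPlo was -0.11 (95% interval -0.79 to 0.57, limma adjusted p = 0.937). Its sign turned to 0.15 without GFPhi replicate 2. Summed per group the rate was 1.01 RPM in GFPlo (exact Poisson 95% interval 0.662 to 1.48) and 0.933 in GFPhi (0.63 to 1.33).

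**Figure D3:**
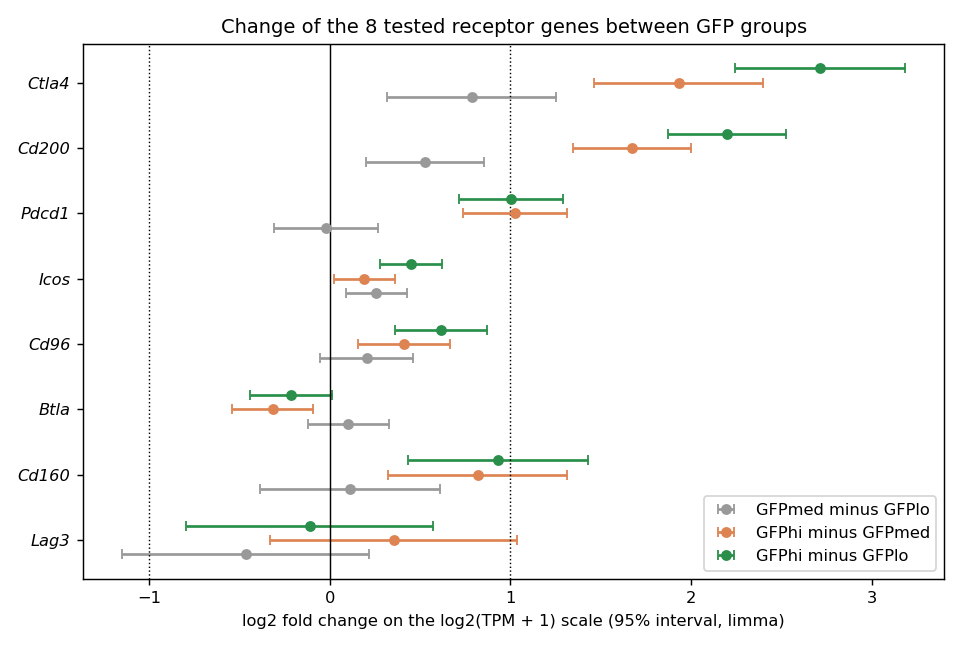
Log2 fold changes on the log2(TPM + 1) scale (horizontal axis) of the 8 tested receptor genes for the 3 pairs of groups, with 95% intervals from limma; dotted lines mark the fold limit of 1 in either direction. For Ctla4, Cd200 and Pdcd1 the difference between GFPhi and GFPmed (1.93, 1.67 and 1.03) exceeds that between GFPmed and GFPlo (0.79, 0.53 and -0.022), while the intervals of Lag3 span 0 in all 3 pairs.

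The medium gate asked where along the reporter the receptor genes moved. Between GFPmed and GFPlo 0 of the 8 were called, against 0.0554% of all genes called higher. In limma 3 of them had an unadjusted p under 0.05, Ctla4 (log2 difference 0.79, adjusted p = 0.607), Cd200 (0.53, adjusted p = 0.631) and Icos (0.26, adjusted p = 0.696). With limma-voom on the solved reads 0 were called as well, where 18 of 30522 genes were called higher. Between GFPhi and GFPmed 3 of the 8 were called higher, against 0.541% of all genes, with a log2 fold change of 1.93 for Ctla4 (adjusted p = 0.00479) beside the values for Cd200 and Pdcd1 above. In GFPmed, Ctla4 had covered 28.9%, Cd200 23.9%, Cd96 33.1% and Icos 57.3% of their log2(TPM + 1) difference between GFPlo and GFPhi, while Pdcd1 stood at -2.17%. For Ctla4, at a low TPM in GFPlo, that scale shrinks the lower step more than the upper one. Nr4a1 itself had covered 40.5%, with steps of 0.79 and 1.16.

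Whether the upper step was larger than the lower one was tested as the difference between the 2 steps. It was 1.15 on the log2 scale for Ctla4 (95% interval 0.33 to 1.96, unadjusted p = 0.012, limma adjusted p = 0.835), 1.15 for Cd200 (0.58 to 1.71, unadjusted p = 0.00166, adjusted p = 0.49) and 1.05 for Pdcd1 (0.55 to 1.54, unadjusted p = 0.00132, adjusted p = 0.442). No receptor gene passed the correction over all genes in this fit, in which 0.0195% of all genes did. With limma-voom on the solved reads 2 of the 8 passed, Cd200 (1.24, adjusted p = 0.0298) and Pdcd1 (1.07, adjusted p = 0.0412), where 0.351% of all genes did. With median-of-ratios size factors in voom both failed again (adjusted p = 0.469 and 0.493). Of 10 alternatives that kept every sample, some chosen after the data were seen, 2 called each of these genes. The lowest limma adjusted p among them was 0.00533 for Cd200 and 0.00722 for Pdcd1. For Icos the difference between the steps was -0.066 (95% interval -0.36 to 0.23).

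Levels of different genes were set on a common scale as exonic RPKM, the solved reads per kilobase of exon scaled to the total of the sample, since the length behind the deposited TPM was the genomic span, introns included. On that scale Cd28 led in every sample, with Cd96 and Icos next, and the order of those further down depended on the group. In GFPlo the means were 67.6 ± 2.09 for Cd96, 52.5 ± 1.96 for Icos, 28.3 ± 0.85 for Btla, 25.5 ± 0.931 for Pdcd1, 6.54 ± 1.17 for Cd200 and 1.11 ± 0.285 for Ctla4. In GFPhi they were 108.4 ± 3.86 for Cd96, 73.0 ± 4.17 for Icos, 53.3 ± 6.15 for Pdcd1, 32.9 ± 0.988 for Cd200, 24.7 ± 2.88 for Btla and 12.6 ± 1.51 for Ctla4. Pdcd1 and Cd200 were thus below Btla in GFPlo and above it in GFPhi, in both cases with no overlap of samples. At the bottom of the order in GFPlo, Ctla4, Cd160 and Tigit overlapped each other, and Lag3 overlapped Cd160 and Tigit but lay below every Ctla4 sample, whereas in GFPhi Ctla4 stood above Cd160 and Cd160 above the other two. By TPM, Cd96 had ranked sixth of the 10 genes with Cd28 included, because its single transcript spans 84595 bases with 2184 bases of exon.

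The 1530 olfactory and vomeronasal receptor genes, which a thymocyte is not known to express, give a reference for the lowest levels. Their median was 0.411 exonic RPKM in GFPlo, 0.383 in GFPmed and 0.364 in GFPhi, and their 95th percentile 2.49, 2.32 and 2.32. Lag3 (0.481 ± 0.105 in GFPlo and 0.453 ± 0.263 in GFPhi) and Tigit (0.673 ± 0.277 and 0.437 ± 0.138) were above 54.2% to 63.3% of these genes in those groups, so neither stood out from them. Ctla4 was above 77.8% of them in GFPlo, 96.5% in GFPmed and 99.9% in GFPhi, and Cd160 above 70.0%, 77.6% and 97.6%. The Ctla4 level in GFPlo and the Cd160 level in GFPlo and GFPmed were below the 95th percentile of these genes.

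**Figure D4:**
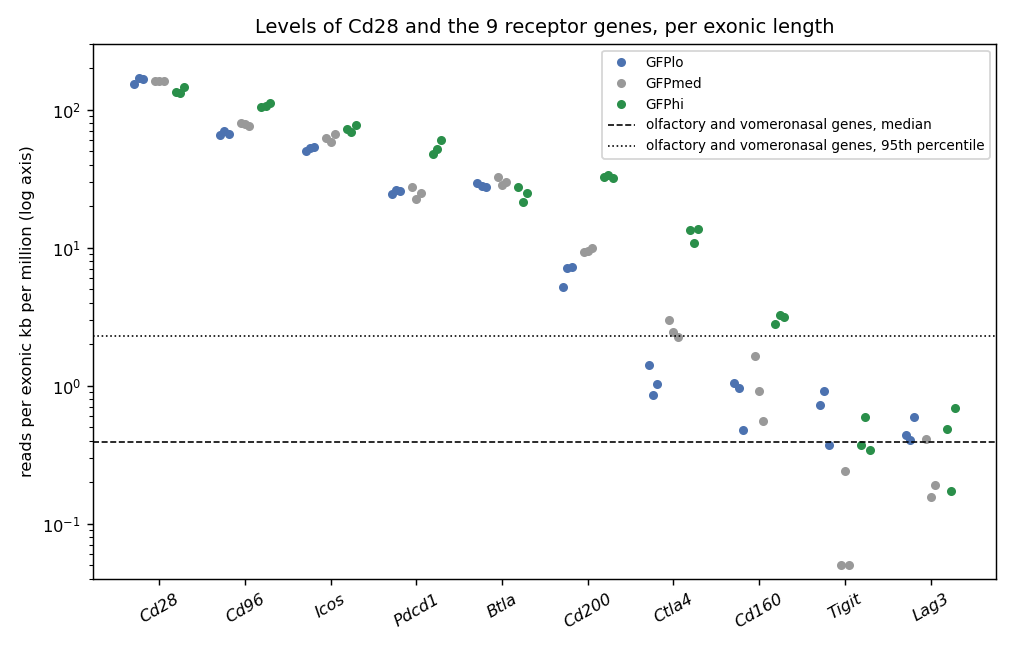
Exonic RPKM from the solved reads (log axis) of Cd28 and the 9 receptor genes in each sample, coloured by group; the dashed and dotted lines are the median and the 95th percentile of 1530 olfactory and vomeronasal receptor genes over all samples, and the 2 Tigit samples with 0 reads are drawn at 0.05. Pdcd1 and Cd200 pass Btla between GFPlo and GFPhi, Ctla4 moves from below the dotted line to 12.6, and Lag3 and Tigit scatter around the dashed line.

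The other genes of these pathways were taken from lists written by function. Of 10 tested among 12 other receptors, 3 were called higher in GFPhi relative to GFPlo and 1 was called lower. Cd226 was the one lower. Cd5 (193 ± 16.7 TPM in GFPlo, 592 ± 75.3 TPM in GFPhi, log2 fold change 1.61, adjusted p = 0.000188) and Cd6 (156 ± 1.38 and 476 ± 51.2 TPM, 1.60, adjusted p = 6.49e-05) are related scavenger-type receptors that dampen TCR signaling. Cd101, an immunoglobulin-type inhibitory receptor, went from 1.14 ± 0.222 to 3.89 ± 0.463 TPM (1.19, adjusted p = 0.0183). The list's median log2 fold change was -0.23, on the other side of 0 from the 3 that rose.

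Of the ligands and counter-receptors, 11 of 15 were tested, 1 was called higher and 0 lower, and the median was -0.11. That one was Cd86, a ligand of CTLA-4 and CD28, with 1.66, 1.03 and 1.78 TPM in GFPlo, 2.47, 1.86 and 4.03 in GFPmed and 5.29, 5.98 and 6.90 TPM in GFPhi (log2 fold change 1.51, adjusted p = 0.0225). Cd80, the other ligand, was below the filter at 0.409 to 1.05 TPM over all samples. Of the PD-1 ligands, Cd274 (PD-L1) was at 15.04 ± 2.27 TPM in GFPlo, 20.6 ± 2.36 in GFPmed and 21.2 ± 1.86 TPM in GFPhi (0.47, adjusted p = 0.15, not called), and Pdcd1lg2 (PD-L2) was below the filter at 0.393 to 1.10 TPM. Since CD86 is also a product of antigen-presenting cells, their markers are given beside it: 0 of 4 tested B cell markers and 0 of 4 tested myeloid and dendritic cell markers were called, and the summed B cell markers were at 20.5 to 28.6 TPM in GFPlo and 11.6 to 30.9 TPM in GFPhi. The myeloid and dendritic sum was at 17.8 to 22.9 TPM in GFPlo and 14.1 to 21.0 TPM in GFPhi.

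Of the signalling and trafficking partners 15 of 16 were tested and 1 was called higher, with a median of 0.095. It was Prkch, the kinase PKC-eta that associates with the CTLA-4 tail, at 8.93 ± 0.62 TPM in GFPlo, 12.6 ± 0.398 in GFPmed and 24.2 ± 2.28 TPM in GFPhi (log2 fold change 1.343, adjusted p = 0.000885). The phosphatases, adaptors and phosphoinositide 3-kinase subunits on the list gave no call. 

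Of the transcriptional and post-transcriptional regulators, 19 of 20 were tested, 5 were called higher in GFPhi relative to GFPlo and 1 was called lower, and the median was 0.43. Besides Nr4a1 (1.95) these were Nr4a2 (1.10, adjusted p = 0.0438), Nr4a3 (1.97, adjusted p = 0.000962), Bcl6 (1.89, adjusted p = 0.000932), a repressor best known from follicular helper T cells, and Foxp3 (1.10, adjusted p = 0.00987), which specifies Treg. Tox2, a factor tied to PD-1 expression in chronically stimulated T cells, fell from 2.39 ± 0.215 to 0.576 ± 0.0501 TPM (-1.10, adjusted p = 0.0122). Tox2 and Pdcd1 therefore went in opposite directions here.

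**Figure D5:**
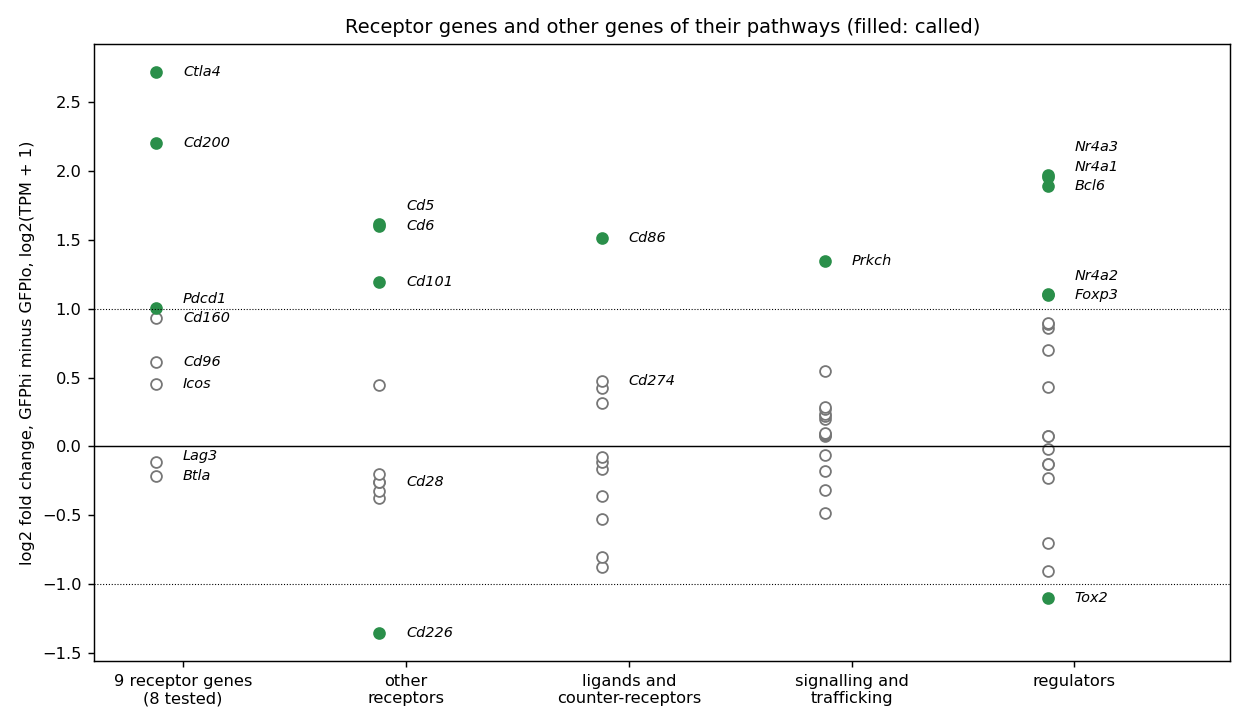
Log2 fold change between GFPhi and GFPlo on the log2(TPM + 1) scale (vertical axis) for each tested gene of the 5 lists, 1 point per gene; filled points were called and dotted lines mark the fold limit. The receptor genes run from -0.21 for Btla to 2.72 for Ctla4, and among the other lists the called genes reach from -1.36 for Cd226 to 1.97 for Nr4a3.

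Several Treg markers rose as well. Although CD25+ cells were gated out, 5 of 8 tested Treg markers (Foxp3, Il2ra, Ikzf2, Ikzf4 and Il2rb) were called higher in GFPhi relative to GFPlo and 0 were called lower. Their summed level was 191 to 198 TPM in GFPlo, 249 to 304 in GFPmed and 390 to 464 TPM in GFPhi. Il2ra, which encodes CD25, went from 0.665 ± 0.0692 TPM in GFPlo over 1.75 ± 0.259 TPM in GFPmed to 9.73 ± 1.57 TPM in GFPhi. Foxp3 was at 6.75 ± 0.249, 6.33 ± 0.835 and 15.7 ± 2.38 TPM, so that, as for Pdcd1, the GFPmed mean was just under the GFPlo mean and the GFPhi mean above both. Ctla4 is itself a Treg product, and the part of such cells in its rise was not tested. Of 4 tested double-positive thymocyte markers Cd8a and Dntt were called lower in GFPhi, and Cd8b1 was lower under the fold limit (log2 difference -0.79). Rag1 was not called (log2 difference -0.20, limma adjusted p = 0.872). Rag2, below the filter, was at 0.229 ± 0.083 TPM in GFPlo and 0.717 ± 0.564 TPM in GFPhi. The list summed to 53.8 to 56.7 TPM in GFPlo and 25.3 to 32.4 TPM in GFPhi. Of the thymic epithelial markers Epcam was called higher, with the list at 3.86 to 8.96 TPM in GFPlo and 10.3 to 13.2 TPM in GFPhi. The part of these markers in the receptor differences was not tested.

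The genes most like the 3 called receptors were sought by Pearson correlation of log2(TPM + 1) over the 9 samples, among 9958 genes with a mean TPM of at least 5. The samples form 3 groups, which all 9 of these correlations share, and no p is given. For Ctla4 these were S1pr1 (r = 0.997), the receptor that guides egress from the thymus, with 7.65 TPM on average in GFPlo and 221.7 TPM in GFPhi, Ikzf3 (r = 0.995), which encodes the lymphoid factor Aiolos, and Ift80 (r = 0.994). For Cd200 they were Gsto1 (r = 0.996), Fam169b (r = 0.995) and Suox (r = 0.995). For Pdcd1 they were Foxp3 (r = 0.994), Gfi1 (r = 0.987), a transcriptional repressor in lymphocytes, and the integrin gene Itga4 (r = 0.986). No gene was named for more than one receptor.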

How the data were processed

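RNA-seq was analysed for 9 samples of sorted SP4 thymocytes, 3 per GFP group, grouped by their labels. The authors prepared cDNA with SMART-seq v4 and Nextera XT, trimmed the reads, aligned them to GRCm38 with STAR 2.7.11b, dropped identical duplicates, counted per gene and deposited the values as TPM. The deposited table also holds the authors' mean normalized signal of each group (reads over DESeq2 1.34.0 size factors), used here only to solve for reads, and their fold changes, adjusted p-values and call flags, which were not used. Reads of 41578 of 41978 genes were solved, and 100% of their values were whole within 0.05. The depth bears on genes with few reads. The TPM divisor was within 1% of the mean genomic transcript span for 98.4% of 41439 genes in GENCODE vM21, so genes were compared with each other only per exonic kilobase.

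Testing used limma 3.58.1 under R 4.3.3: values of log2(TPM + 1), 1 model over 9 samples, eBayes with a trend, two-sided, Benjamini-Hochberg over all genes tested. Replicates were labelled as biological. The fit was also run on simulated reads, in which no gene with few reads was changed, so that run does not bear on changes of such genes. The fit was repeated without a filter, with the filter at a TPM of 5, with a pseudocount of 0.1, after median-of-ratios scaling, on just the 2 groups compared, without the trend, without a fold limit, with the replicate number as a block, leaving out each sample, and as limma-voom on solved reads. Voom with the block and voom with median-of-ratios size factors were chosen after seeing the data. The receptor genes and gene lists were chosen with earlier results of these data known, so nothing here is independent support. All receptor genes are named. Of the other lists, every gene called in any pair was named, with Cd28, Cd226, Tnfrsf14, Cd80, Cd86, Cd274, Pdcd1lg2 and Nr4a1 in any case, and for each receptor called between GFPhi and GFPlo the 3 genes most like it, leaving out symbols of Gm and digits or ending in Rik. Genes of the marker lists and Cd200r1 were named after their values were seen. The SP4 gate is CD24+ in the labels and CD24hi in the methods, while the study's main text has CD24lo.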

Additional observations from a re-analysis of the deposited data

How the results depend on the processing

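The number of receptor genes called higher between GFPhi and GFPlo was 3 in the reported fit, where 387 of all 30693 genes were. It moved to 5 with no limit on the fold change, when Icos and Cd96 were added, where 730 of all genes were called. Median-of-ratios scaling left 2, where 317 of 30364 genes were called higher. Voom on the solved reads gave 4, where 485 of 30522 were. With 1 sample left out it was 2 to 3, where 252 to 360 of all genes were called higher. For GFPhi against GFPmed it was also 2 to 3, where 79 to 160 of all genes were. For GFPmed against GFPlo it was 0, where 2 to 16 of all genes were. Ctla4 and Cd200 were called higher in GFPhi against both other groups under all alternatives. Pdcd1 lost its call against GFPmed with median-of-ratios scaling (adjusted p = 0.112), with only these 2 groups (adjusted p = 0.0517) and, with log2 fold changes of 0.96 and 0.94, without GFPmed replicate 2 or GFPhi replicate 3. Signs turned only in differences that were not called: Lag3 between GFPhi and GFPlo without GFPhi replicate 2 (0.15, within -0.33 to 0.15 over the samples left out), Pdcd1 between GFPmed and GFPlo with median-of-ratios scaling (0.0015) and without GFPmed replicate 2 (0.046, within -0.10 to 0.046), and Cd160 between GFPmed and GFPlo without GFPmed replicate 1 (-0.052, within -0.052 to 0.25). Cd160 and Lag3 were not tested at a TPM of at least 5.

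Same-numbered samples of different groups correlated in their deviations from the group means at 0.0122 to 0.225 over 9 pairs, and the labels name no shared animal, so the numbers were not taken as pairs. With the replicate number as a block 3 receptor genes were called higher between GFPhi and GFPlo and 3 between GFPhi and GFPmed, as without it, with an adjusted p of 0.00345 for Ctla4, 0.00247 for Cd200 and 0.0236 for Pdcd1, and voom with the block called 4. Over all genes the fit with the block called 346 of 30693 higher between GFPhi and GFPlo and 126 between GFPhi and GFPmed. Voom with the block called 508 of 30522 higher between GFPhi and GFPlo. In the fit to TPM the block cannot change the log2 differences, because every group holds each replicate number, so their equality is no check. Depth limits Lag3, Tigit and, in GFPlo, Ctla4 and Cd160.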
